A study of Mus musculus with 13 samples.

Results

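Binding of the glucocorticoid receptor (GR) and of the corepressor NCOR1 was described at 8 mouse genes of PPARalpha signalling and fatty acid oxidation, namely Ppara, Cpt1a, Cpt2, Acadm, Hadhb, Ehhadh, Cyp4a10 and Cyp4a14. The genes were chosen by name among 21887 protein-coding gene bodies, and a peak was assigned to the gene body nearest to its centre if that lay within 100 kb. Of 217044 peaks in 7 deposited lists, 195 were assigned to the 8 genes. Peaks that overlapped by at least 1 bp across lists were joined, which gave 72 sites, and 0 sites joined 2 peaks of the same list. Of these sites 35 lay inside a gene body, 25 upstream and 5 downstream. The other 7 lay outside Cyp4a10 or Cyp4a14, for which no strand was used. The farthest site, assigned to Ppara, was 73.9 kb from its gene.

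The study profiled male mouse liver by chromatin immunoprecipitation and sequencing (ChIP-seq), which counts DNA fragments pulled down with an antibody. Livers had the genotype label GFP and were titled Cont (control here), or had the genotype label CRE and were titled dKO, a knockout that takes in NCOR1 per the design text. Age, strain, the vector and the promoter that drives CRE are not given in the sources used here. Mice received vehicle (saline) or dexamethasone, a synthetic glucocorticoid, at 1 mg/kg by intraperitoneal injection at zeitgeber time 8, and livers were frozen 2 h later. GR data cover both genotypes with both treatments, at 2 libraries per group. For NCOR1 there was 1 library of vehicle-treated control liver, 1 of vehicle-treated dKO liver and 2 of dexamethasone-treated control liver. The NCOR1 libraries were size-selected and the GR libraries were not, per the labels. Each deposited list pools the libraries of its group, so no spread between animals could be had, no test was possible and no p-value is given. All differences below are therefore descriptions of single lists, with exact 95% binomial intervals that cover counting error only.

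The unit is the normalised tag count, the number of sequence tags in a 200 bp peak per 10 M tags. Tag totals were 27.5 M to 31.9 M in the GR lists. The NCOR1 totals were 17.8 M for vehicle and 36.9 M for dexamethasone in control liver, and 17.5 M in dKO liver. The GR lists held 23362 to 40853 peaks and the NCOR1 lists 17282 to 39458. The share of tags in peaks was 3.4% to 7.23% for GR, lower in each dKO list than in its control. For NCOR1 it was 8.52% under vehicle and 6.38% under dexamethasone in control liver, and 2.07% in dKO liver. The lowest listed tag counts were 3.66 to 5.72, so a missing peak means that no peak met the calling rules, not that binding was absent. As a check of the knockout, 79.5% of all NCOR1 peaks of control vehicle liver had no overlapping peak in dKO liver. The tissue could not be checked from binding, since GR peaks lay near 3 or 4 of 5 hepatocyte marker genes and also near 2 or 3 of 3 neuronal ones. In whole liver, fewer cells that carry a bound site and less binding per cell cannot be told apart.

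PPARalpha is a nuclear receptor that is activated by fatty acids, pairs with the retinoid X receptor and switches on genes that burn fat in the fasting liver. GR is the nuclear receptor for glucocorticoids, and NCOR1 is a corepressor that nuclear receptors recruit together with a histone deacetylase. Cpt1a and Cpt2 encode the carnitine palmitoyltransferases that move long-chain fatty acids into mitochondria. Acadm (medium-chain acyl-CoA dehydrogenase) and Hadhb (beta subunit of the mitochondrial trifunctional protein) act in mitochondrial beta-oxidation. Ehhadh is the peroxisomal bifunctional enzyme, and Cyp4a10 and Cyp4a14 are microsomal fatty acid omega-hydroxylases and classical PPARalpha targets in mouse.

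Peaks assigned to the gene itself reached into the 250 bases upstream of the annotated start at 4 of the 6 members that have a promoter in the RefSeq table (GRCm38.p6). Those 4 promoters are shown because GR or NCOR1 signal lay directly on them, and capitals mark the bases inside a peak assigned to that gene in at least 1 list. An NCOR1 peak of dKO liver assigned to the neighbouring gene Hadha also overlapped the Hadhb promoter and is not marked. At Cpt2 the only GR peak under the capitals is that of control dexamethasone liver.
Ppara, chr15:85735526-85735775, plus strand, with 42 bases under GR peaks of control vehicle and dKO vehicle liver: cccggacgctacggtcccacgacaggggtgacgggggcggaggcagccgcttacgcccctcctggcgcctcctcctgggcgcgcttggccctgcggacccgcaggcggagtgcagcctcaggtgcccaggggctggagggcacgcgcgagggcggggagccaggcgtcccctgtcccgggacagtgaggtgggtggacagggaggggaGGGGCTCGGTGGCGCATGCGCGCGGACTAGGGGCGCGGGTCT
Cpt2, chr4:107923590-107923839, minus strand, with 55 bases under GR and NCOR1 peaks of control liver: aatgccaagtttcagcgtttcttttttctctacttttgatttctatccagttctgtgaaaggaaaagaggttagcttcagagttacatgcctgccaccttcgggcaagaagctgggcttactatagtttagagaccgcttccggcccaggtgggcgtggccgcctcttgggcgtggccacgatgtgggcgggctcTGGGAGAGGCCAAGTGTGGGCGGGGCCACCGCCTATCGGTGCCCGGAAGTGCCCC
Acadm, chr3:153944644-153944893, minus strand, with 110 bases under GR and NCOR1 peaks: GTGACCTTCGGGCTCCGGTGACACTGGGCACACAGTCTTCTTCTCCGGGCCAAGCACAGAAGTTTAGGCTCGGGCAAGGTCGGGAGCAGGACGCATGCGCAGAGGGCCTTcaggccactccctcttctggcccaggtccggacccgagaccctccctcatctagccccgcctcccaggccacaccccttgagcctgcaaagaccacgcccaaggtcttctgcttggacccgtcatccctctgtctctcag
Hadhb, chr5:30155003-30155252, plus strand, with 182 bases under an NCOR1 peak of control vehicle liver: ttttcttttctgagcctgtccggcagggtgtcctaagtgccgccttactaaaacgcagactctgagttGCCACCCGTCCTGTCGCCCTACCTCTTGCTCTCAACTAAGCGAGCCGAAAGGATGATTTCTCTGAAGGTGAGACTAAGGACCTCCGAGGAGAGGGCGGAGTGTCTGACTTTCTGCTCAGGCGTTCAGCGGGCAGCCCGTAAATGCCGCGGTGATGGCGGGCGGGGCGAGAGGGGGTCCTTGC

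Motifs were searched on both strands of windows from 250 bases before to 50 bases after the start. The palindromic GR element (AGAACA, any 3 bases, TGTTCT) was in 0.00913% of 32851 promoters and its core ACANNNTGT, which lies within it, in 6.85%. Neither was in any of the 6 member promoters. The PPAR-type direct repeat (AGGTCA, any 1 base, AGGTCA) was in 0.0396% of promoters and its looser form (AGGNCA, any 1 base, AGGNCA) in 0.381%, and the 6 member promoters held 0 of either. The single hexamer AGGTCA, which is part of the direct repeat, was in 16.3% of promoters and, among the members, in those of Cpt1a and Acadm, where it read TGACCT. In the Acadm run it stands in capitals near the 5′ end. A missing match says only that these letters are not in the window, and most member peaks lay outside it.

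GR peaks were found at 43 of the 72 sites and NCOR1 peaks at 60, with both at 31. Ppara held 28 of the sites, 16 with GR and 25 with NCOR1, and the other genes held from 3 (Cpt2) to 9 (Ehhadh). The 8 genes held 28 GR peaks under vehicle and 31 under dexamethasone in control liver, and 15 and 23 in dKO liver. At least 1 GR peak was listed at 7 and 8 of the genes in control liver and at 4 and 6 in dKO liver, again vehicle before dexamethasone. The 4 genes with GR in dKO vehicle liver were Ppara, Cpt1a, Cyp4a10 and Cyp4a14. NCOR1 had 49 member peaks under vehicle and 40 under dexamethasone in control liver, and 9 in dKO liver.

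**Figure D1:**
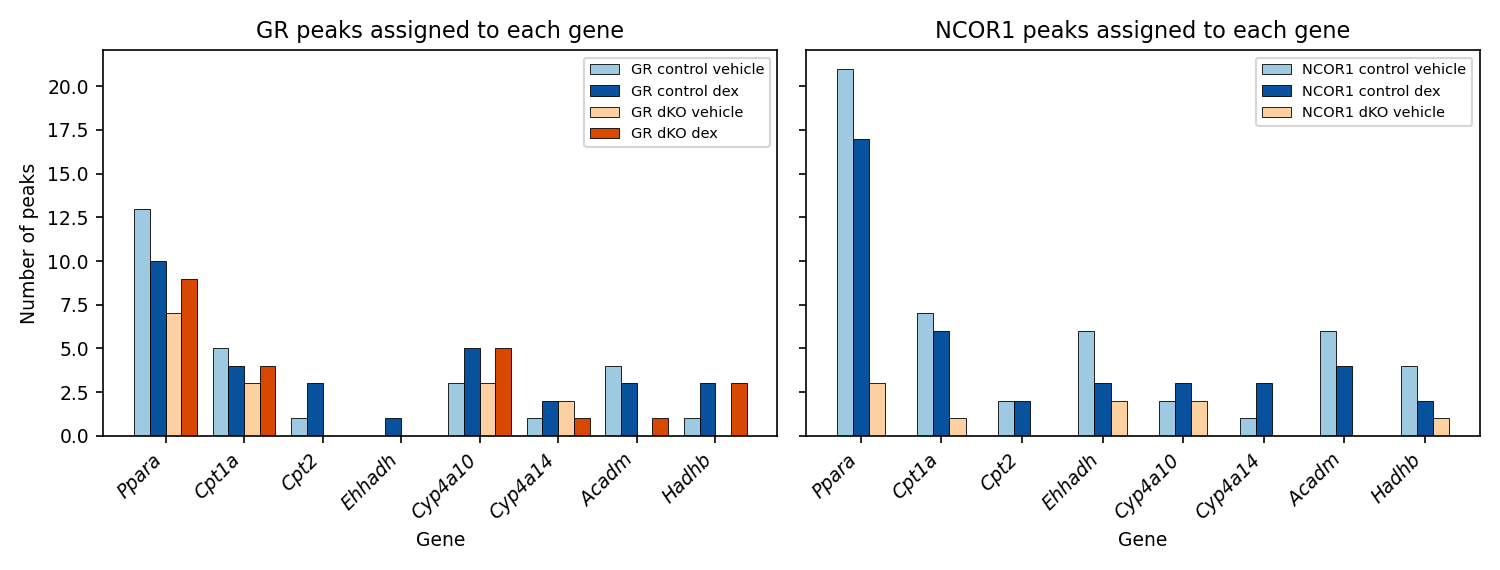
Number of peaks (y axis) assigned to each of the 8 genes (x axis), with 1 bar per list, GR on the left and NCOR1 on the right. Ppara has the tallest bars, with 13 GR and 21 NCOR1 peaks in control vehicle liver, and Ehhadh has 1 GR peak in the 4 GR lists together against 6 NCOR1 peaks in control vehicle liver.

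Ppara carried its highest GR peak of both control lists inside the gene, 42.1 kb from the start of the gene body (chr15:85776878-85777149). The GR tag count there was 43.0 under vehicle and 57.3 under dexamethasone in control liver, and 20.7 and 55.9 in dKO liver. The dKO vehicle value stood below the other 3. The ratio of dexamethasone to vehicle was 1.33 (95% interval 1.05 to 1.70) in control and 2.70 (2.03 to 3.67) in dKO liver. The dKO ratio was above that at 97.2% of the GR sites listed in both dKO groups. The difference between the genotypes' drug ratios was not tested. NCOR1 was listed at this site in control vehicle liver only, at 43.0.

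Another 2 intragenic Ppara sites were listed in all 4 GR lists. At chr15:85771293-85771563 the GR tag count was 28.4 under vehicle and 41.1 under dexamethasone in control liver, and 21.8 and 25.9 in dKO liver. At chr15:85787566-85787802 it was 19.7, 29.5, 18.0 and 24.4 in the same order. Both were highest in control dexamethasone and lowest in dKO vehicle liver, with drug ratios of 1.45 and 1.5 in control and 1.19 and 1.36 in dKO liver. A site 55.3 kb upstream of Ppara (chr15:85679509-85679732) had another order, with GR tag counts of 17.5, 13.0, 20.2 and 10.5. It was lower after dexamethasone in both genotypes, with ratios of 0.743 (0.474 to 1.16) in control and 0.520 (0.337 to 0.812) in dKO liver, and it carried no NCOR1 peak in any list.

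**Figure D2:**
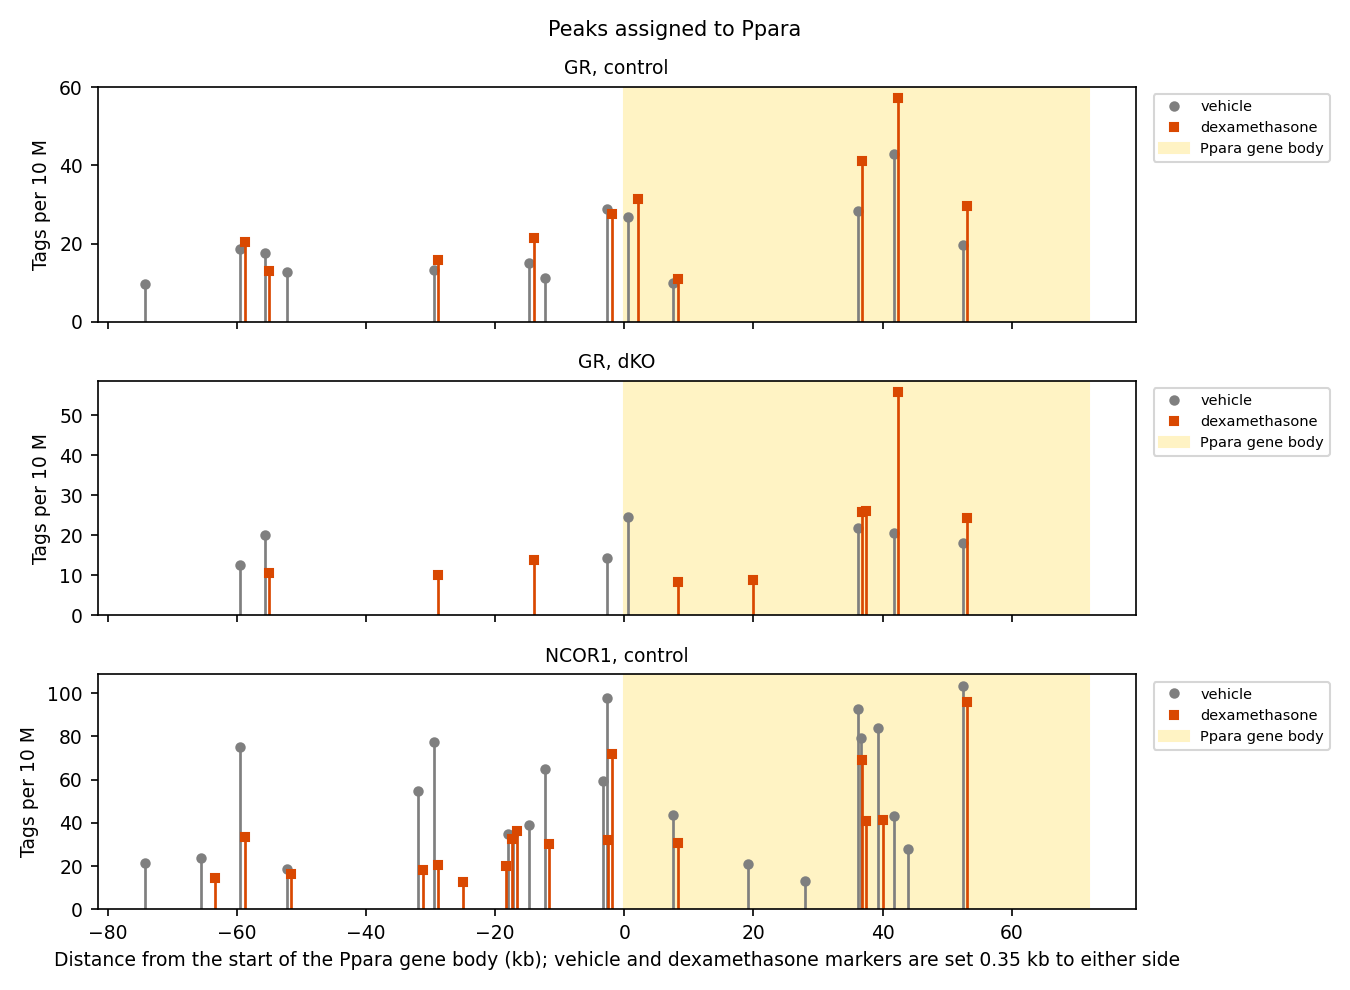
Normalised tag count (y axis, tags per 10 M) of each peak assigned to Ppara against its distance in kb from the start of the gene body (x axis), for GR in control liver, GR in dKO liver and NCOR1 in control liver. Grey circles are vehicle, orange squares are dexamethasone, and the shaded band is the gene body; NCOR1 markers for vehicle stand above those for dexamethasone at 13 of the 14 shared sites.

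Near the Ppara promoter printed above, the GR peak that was listed differed between lists. This promoter lies inside the gene body from which distances are counted, which starts at chr15:85734910. GR was listed over the promoter at chr15:85735734-85735964 under vehicle, at 26.9 in control and 24.7 in dKO liver, and in neither dexamethasone list. In control dexamethasone liver a separate GR peak of 31.3 was listed at chr15:85736637-85736837, with its start 903 bp away. In dKO dexamethasone liver neither peak was listed. In the authors' deposited table these peaks were 5.31-fold to 7.08-fold above their local background, near the 4-fold limit of the caller, so the absence of a listed peak does not show loss of binding. At 2.18 kb upstream of the gene body the GR tag count was 28.9 in control vehicle, 27.6 in control dexamethasone and 14.4 in dKO vehicle liver, with no peak listed in dKO dexamethasone liver.

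Cpt1a, the gatekeeper of mitochondrial fatty acid entry, held the highest GR tag count of the 8 genes in both control lists, at chr19:3326475-3326710 inside the gene. The GR tag count was 59.7 under vehicle and 64.1 under dexamethasone in control liver, against 25.4 and 35.7 in dKO liver. Both dKO values lay below both control values. The ratio of dKO to control was 0.425 (0.321 to 0.559) under vehicle and 0.557 (0.439 to 0.708) under dexamethasone, while dexamethasone over vehicle was 1.07 (0.865 to 1.33) in control liver. Only 3.60% of GR sites shared by the vehicle lists had a lower dKO ratio. A weaker Cpt1a site 31.6 kb into the gene had GR tag counts of 13.3 and 21.8 in control liver and 9.63 and 11.1 in dKO liver, vehicle before dexamethasone. A site 2.02 kb upstream of Cpt1a was listed at 18.9, 22.0 and 19.4 in all but dKO vehicle liver. Another, at 3.16 kb into the gene, was listed under vehicle only, at 22.4 in control and 23.6 in dKO liver. These 2 peaks were 4.16-fold and 6.01-fold above local background, near the 4-fold limit of the caller. The main Cpt1a peak of the dexamethasone lists lay 1156 and 1211 bp away, so the absence of a listed peak does not show loss of binding.

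Cyp4a10 and Cyp4a14, neighbouring genes on chromosome 4, had the highest drug ratios of GR among the members in control liver. These genes have close paralogues beside them, and how tags that map to several copies were treated is not given in the sources used here, so their values are uncertain. At the 3 Cyp4a10 sites shared by both control lists the GR tag count was 9.46 under vehicle and 20.0 under dexamethasone, 18.0 and 35.6, and 24.2 and 45.6. The ratios were 2.11 (1.31 to 3.49), 1.98 (1.41 to 2.86) and 1.88 (1.41 to 2.59), above those at 90.2%, 88.1% and 86.3% of all shared GR sites. A further intragenic Cyp4a10 site (chr4:115529945-115530152) had no GR peak in either vehicle list, and was listed at 43.1 in control dexamethasone and 12.8 in dKO dexamethasone liver. The control peak was 19.1-fold above its local background in the authors' deposited table, and NCOR1 was listed there in control dexamethasone liver only, at 25.3. The dKO to control ratio of GR at this site was 0.297 (0.205 to 0.428), lower than at all but 1.18% of the sites shared by the dexamethasone lists.

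At Cyp4a14 the highest GR value was in dKO vehicle liver. Its GR site 1.52 kb outside the gene on the higher-coordinate side (chr4:115497582-115497826) had a tag count of 12.7 under vehicle and 25.0 under dexamethasone in control liver, and of 31.9 and 27.7 in dKO liver. Control vehicle was the low value and the other 3 lay close together. The ratio of dKO to control under vehicle was 2.51 (1.68 to 3.78), and the site was 1 of 26 among 19488 shared GR sites at least 2-fold higher in dKO liver. Dexamethasone over vehicle was 1.97 (1.3 to 3.02) in control and 0.868 (0.644 to 1.17) in dKO liver. NCOR1 was listed at this site at 39.7 in control vehicle and 47.0 in control dexamethasone liver, and not in dKO liver.

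**Figure D3:**
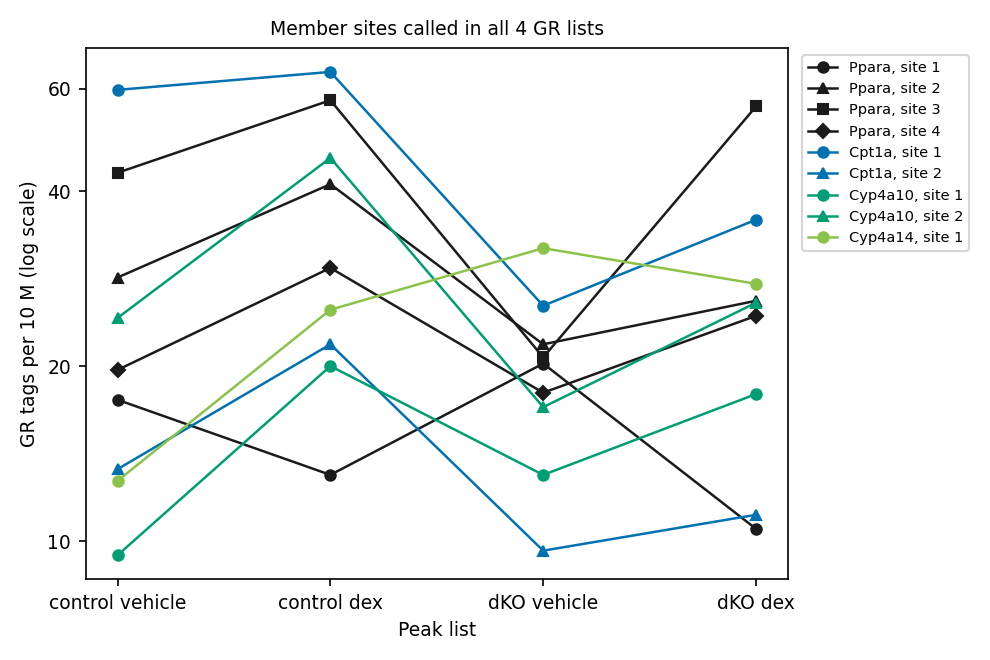
GR normalised tag count (y axis, tags per 10 M, log scale) in the 4 GR lists (x axis, dex for dexamethasone) at the 9 sites listed in all of them, with 1 line per site, coloured by gene. The Cpt1a line at the top drops from 59.7 and 64.1 in control to 25.4 and 35.7 in dKO liver, and the Cyp4a14 line has its high point in dKO vehicle liver.

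In both control lists the strongest GR peaks of Acadm, Hadhb, Cpt2 and Ehhadh, where listed, were lower than those of Ppara and Cpt1a. At the Acadm promoter printed above (chr3:153944784-153945065) the GR tag count was 22.6 in control vehicle, 23.1 in control dexamethasone and 16.3 in dKO dexamethasone liver, with no peak in dKO vehicle liver. The ratio of dexamethasone to vehicle in control liver was 1.02 (0.712 to 1.46). Hadhb had GR tag counts of 23.6 and 14.1 at its intragenic site 13.0 kb from the start, and of 16.2 and 11.4 at another 9.89 kb from the start, in control and dKO dexamethasone liver, with no peak at either site in the vehicle lists. At Cpt2, a GR peak at the start was listed at 9.83 in control vehicle and 12.2 in control dexamethasone liver and in neither dKO list. Only the dexamethasone peak reached into the promoter printed above, and the vehicle peak ended just inside the gene. Ehhadh had a single GR peak, at 9.99 in control dexamethasone liver.

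Across the 20 member sites shared by the control GR lists, the ratio of summed GR tags, dexamethasone over vehicle, was 1.32 (1.22 to 1.42). Over all shared sites it was 1.2. The ratio was above 1 at 18 of the 20 member sites, and 17 lay above the median ratio of all shared sites, 1.05. Of the 20, 1 site was at least 2-fold higher and 0 were at least 2-fold lower, against 11.5% and 2.43% of all 24576 shared sites. The median log2 ratio of GR was 0.36 at member sites, 0.07 at all shared sites and -0.09 at shared sites whose vehicle tag count lay within the members' range. Of the 31 GR peaks after dexamethasone 11 had no vehicle peak (35.5%, against 39.8% of all peaks of that list), and of the 28 vehicle peaks 8 had no dexamethasone peak (28.6%, against 18.1%). The share of peaks listed only after dexamethasone was thus near the background, and that listed only under vehicle above it. However, 2 of the 8 vehicle-only and 3 of the 11 dexamethasone-only peaks had a peak of the other list within 1000 bp. Such peaks need not be whole gains or losses, and the like share over all peaks was not computed. All 8 vehicle-only peaks were under 8-fold above local background. At shared member sites the median and the summed ratio lay above the background, while the share at least 2-fold higher did not. These contrasts were not tested. In dKO liver the 10 shared sites gave a ratio of 1.31 (1.18 to 1.46), against 1.03 for all 18330 shared sites. The median log2 ratio in dKO liver was 0.35 at member sites and -0.11 at all shared sites, with 8 of the 10 member sites above that all-site median. There 1 site was at least 2-fold higher and 0 were at least 2-fold lower, against 7.61% and 8.63%. Of the 23 dKO dexamethasone peaks 13 had no dKO vehicle peak (56.5%, against 35.4%), and all 13 were under 8-fold above local background. Low folds were common among the member peaks. At least 8-fold over both input and local background were 5 of these 23 peaks and 6 of the 28 control vehicle peaks. The share over all peaks of these lists was not computed. Of the 15 dKO vehicle peaks 5 had no dexamethasone peak (33.3%, against 21.5%).

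**Figure D4:**
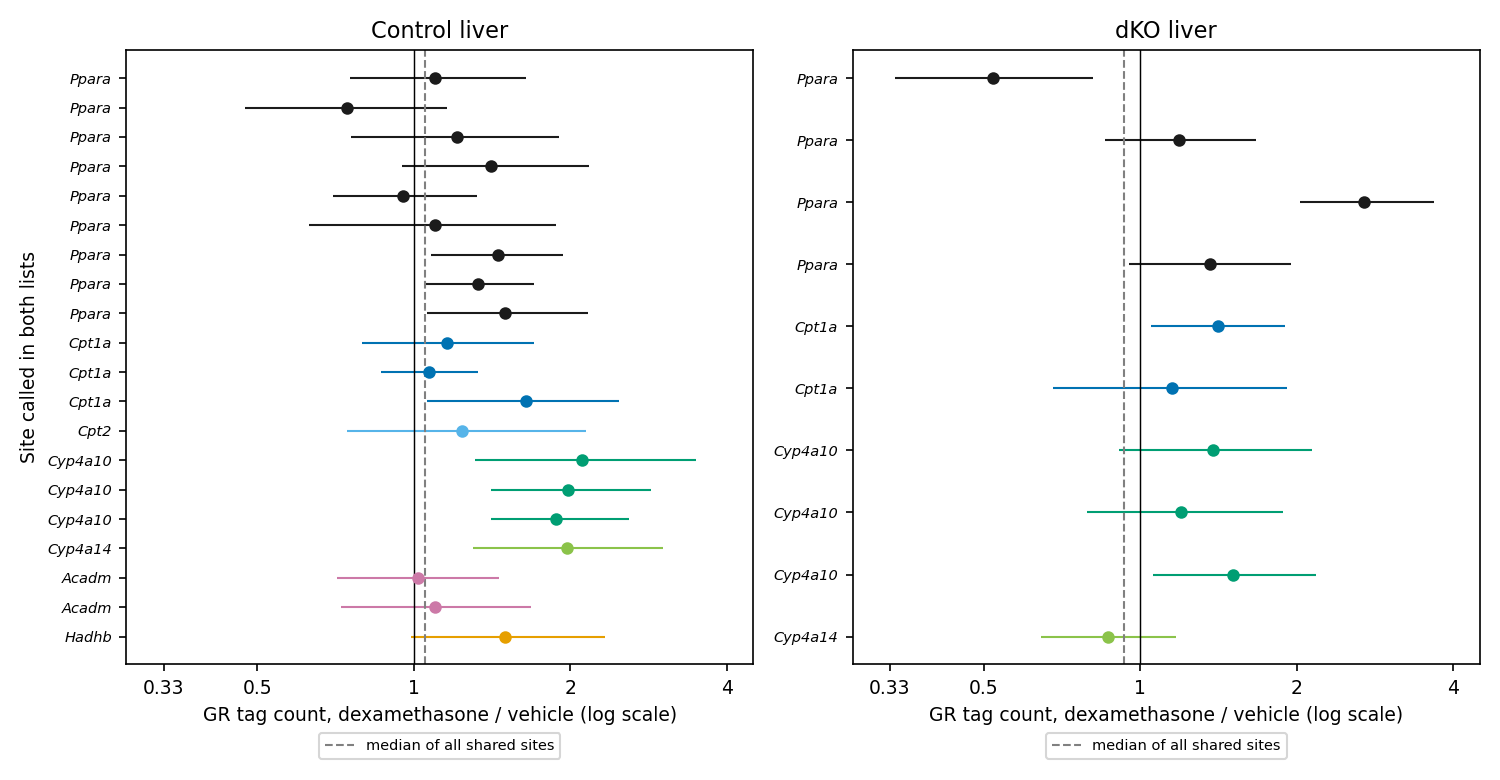
GR tag count under dexamethasone over that under vehicle (x axis, log scale) at each member site shared by both lists (y axis, by gene), in control and dKO liver. Points are ratios, bars are 95% counting intervals, the solid line is 1 and the dashed line is the median of all shared sites. Above 1 lie 18 of 20 control sites and 8 of 10 dKO sites, and above the dashed line 17 and 8.

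In dKO against control liver, GR tags at member sites were lower under both treatments, as they were over all shared sites. Under vehicle the 13 shared sites gave a ratio of summed tags of 0.779 (0.707 to 0.859), against 0.794 for all shared sites. The median log2 ratio was -0.38 at member sites and -0.19 at all shared sites, with 6 of the 13 sites above that all-site median. The ratio of summed tags turned its direction, to 1.18, when only peaks at least 8-fold over input and local background were kept, which left 3 sites. Of the 13 sites, 3, with 2 at Ppara and 1 at Cpt1a, were at least 2-fold lower and 1, at Cyp4a14, at least 2-fold higher, against 7.44% and 0.133% of all shared sites. Of the 28 control vehicle peaks 15 had no dKO peak (53.6%, against 35.1%), and 13 of those 15 were under 8-fold above local background. As given above, only 6 of the 28 were at least 8-fold over both input and local background. Of the 15 dKO peaks 2 had no control peak (13.3%, against 16.6%). Under dexamethasone the 20 shared sites gave 0.693 (0.643 to 0.746), against 0.685 for all shared sites. The median log2 ratio was -0.56, against -0.42 for all and -0.52 for sites in the same tag range. The 2 sites at least 2-fold lower were both at Cyp4a10 and 0 sites were 2-fold higher, against 12.1% and 0.324%. Of the 31 control peaks 11 had no dKO peak (35.5%, against 39.5%), and 3 of the 23 dKO peaks had no control peak (13.0%, against 12.9%). The share of tags in peaks, given above, was also lower in both dKO lists than in their controls, and its part in these ratios was not tested. The drug and genotype comparisons share lists, so they are not independent of each other.

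NCOR1 tag counts come from another antibody and library preparation than those of GR, so levels are compared only within NCOR1. The highest was at Ehhadh, 4.83 kb into the gene (chr16:21782902-21783106), with 117.9 in control vehicle and 152.6 in control dexamethasone liver and no peak in dKO liver. These values were at or above 99.7% and 99.9% of the peaks in their lists. Of the Ehhadh NCOR1 peaks 0 of 6 under vehicle and 0 of 3 under dexamethasone met a GR peak, against 41.3% and 53.0% of all NCOR1 peaks. Ehhadh had 0 GR peaks in control vehicle liver and 1, at 9.99, in control dexamethasone liver. With so few GR peaks to meet, these counts cannot show whether the factors are kept apart there. At the Ppara site 52.8 kb into the gene NCOR1 was 103.5 under vehicle and 95.9 under dexamethasone, and at the site 2.18 kb upstream of Ppara it was 97.6 and 72.1. The highest Cpt1a NCOR1 peaks were 77.6 and 77.3 at 2.02 kb upstream, and the Acadm promoter peak was 71.5 and 49.8.

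The difference in NCOR1 between treatments went both ways among the members. Over all shared NCOR1 sites the median ratio was 0.804 and 12.2% were at least 2-fold lower, so a ratio below 1 was common. Of the 32 shared member sites 12 lay above that median and 20 below it. Some member sites below 1 lay above that median, such as 0.996 at Cpt1a and 0.927 at Ppara. At Ppara 13 of 14 shared sites were lower and 5 were at least 2-fold lower. Summed NCOR1 tags there were 920.7 under vehicle and 570.0 under dexamethasone, a ratio of 0.619. The lowest ratios were at upstream Ppara sites, where NCOR1 was 77.4 and 20.7 at chr15:85705611-85705862 and 54.9 and 18.3 at chr15:85703228-85703452. Their ratios were 0.267 (0.198 to 0.353) and 0.333 (0.242 to 0.460), lower than at all but 0.599% and 2.11% of shared NCOR1 sites. All 4 shared Acadm sites were lower too, with ratios of 0.351 to 0.697, as were both at Cpt2 (0.620 and 0.731). At Cpt1a 5 of 6 were below 1, but the ratios, from 0.679 to 1.05, lay on both sides of the all-site median. The Cpt1a ratio of 0.996 was above those at 70.9% of all shared NCOR1 sites, so at least that share of sites was below 1.

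The Cyp4a sites and the main Ehhadh site went the other way. At the Cyp4a10 site inside the gene NCOR1 was 39.1 under vehicle and 75.2 under dexamethasone, a ratio of 1.92 (1.49 to 2.56) that exceeded 98.1% of shared NCOR1 sites. At the Cyp4a10 site 4.13 kb outside the gene it was 70.0 and 91.0 (1.3, interval 1.06 to 1.62), and at Cyp4a14 39.7 and 47.0 (1.18, interval 0.890 to 1.58). The same 3 Cyp4a sites had GR ratios of 1.98, 2.11 and 1.97 in control liver. The Ehhadh ratio was 1.29 (1.10 to 1.52). The other 3 sites with a ratio above 1, at Ppara, Cpt1a and Hadhb, had intervals that included 1.

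**Figure D5:**
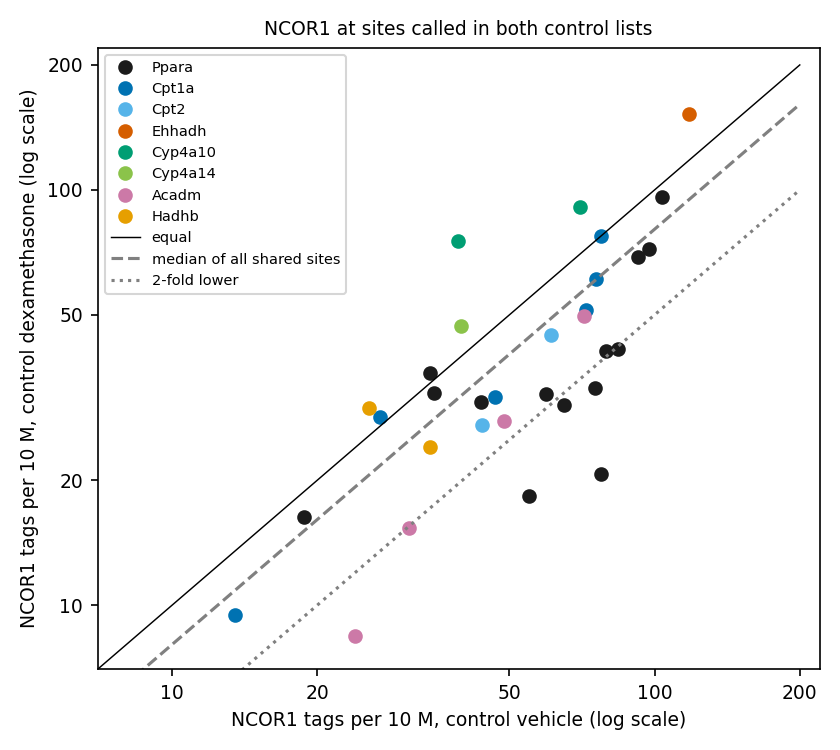
NCOR1 normalised tag count in control dexamethasone (y axis) against control vehicle liver (x axis), both in tags per 10 M on log scales, at the 32 member sites in both lists, coloured by gene. The solid line is equality, the dashed line the median ratio of all shared sites and the dotted line a 2-fold lower count; the Cyp4a10, Cyp4a14 and Ehhadh points lie above equality and 13 of 14 Ppara points below it.

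Over the 32 shared member sites NCOR1 tags gave a ratio of 0.773 (0.740 to 0.808), against 0.79 for all shared sites. Of the 32, 7 sites were at least 2-fold lower and 0 at least 2-fold higher, against 12.2% and 1.52% of all 26532 shared sites. The median log2 ratio was -0.49 at member sites, -0.31 at all sites and -0.47 at sites in the members' range of tag counts, so as a set the members lay near the background. The vehicle value comes from 1 library of 17.8 M tags and the dexamethasone value from 2 libraries with 36.9 M tags, and the part of depth and library in these ratios was not tested. Of the 49 vehicle peaks 17 had no dexamethasone peak (34.7%, against 32.8%), and of the 40 dexamethasone peaks 8 had no vehicle peak (20.0%, against 29.6%).

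In dKO vehicle liver few NCOR1 peaks were left at the members. Of the 49 control vehicle peaks 43 had no overlapping dKO peak (87.8%, against 79.5% of all NCOR1 peaks), 5 met a dKO peak of the same gene and 1, at the Hadhb start, met a dKO peak assigned to its neighbour Hadha. The 5 shared sites were lower in dKO liver, with a ratio of summed tags of 0.388 (0.315 to 0.478), against 0.546 for all shared sites. Of the 5, 4 were at least 2-fold lower and 0 at least 2-fold higher, against 31.5% and 8.19% of all shared sites. The median log2 ratio was -1.34 at member sites and -0.39 at all shared sites. It was -0.94 at the 4385 shared sites in the members' range of tag counts, so sites of like strength were also lower in dKO liver. The share of those sites past 2-fold was not computed. NCOR1 was 72 in control and 32.1 in dKO liver at Cpt1a, 39.1 and 10.6 at Cyp4a10, and 34.3 and 8.30 at Ppara. At Ehhadh it was 30.4 and 12.0 at a site 0.12 kb into the gene. The other 4 of the 9 dKO peaks had no control vehicle peak (44.4%, against 53.1%) and were low, at 7.44 to 13.5.

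GR and NCOR1 met at most GR peaks of the members in control liver. Under vehicle 22 of 28 GR peaks overlapped an NCOR1 peak (78.6%, against 54.3% of all GR peaks), and under dexamethasone 19 of 31 (61.3%, against 48.9%). At Ppara the counts were 10 of 13 under vehicle and 6 of 10 under dexamethasone, and at Cpt1a 4 of 5 and 4 of 4. Seen from the NCOR1 side, 22 of 49 peaks met GR under vehicle (44.9%, against 41.3%) and 19 of 40 under dexamethasone (47.5%, against 53.0%). When NCOR1 peaks that overlapped the dKO list were left out, 20 of the 28 GR peaks under vehicle and 18 of the 31 under dexamethasone still met one, against 42.2% and 38.1% of all GR peaks.

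A list of 48 other genes of PPARalpha signalling and fatty acid oxidation was read in the same way. GR peaks lay at 43 and 45 of the 48 in control liver under vehicle and dexamethasone, and at 37 and 40 in dKO liver. After dexamethasone 20 of 114 shared GR sites in control liver were at least 2-fold higher and 1 lower (11.5% and 2.43% of all shared sites), with a median log2 ratio of 0.45. In dKO liver 8 of 75 were higher and 0 lower (7.61% and 8.63%), with a median of 0.42. In dKO against control liver 0 of 77 GR sites were at least 2-fold higher and 9 lower under vehicle (0.133% and 7.44% of all), and 1 of 102 was higher and 18 lower under dexamethasone (0.324% and 12.1%). For NCOR1, 2 of 166 sites were at least 2-fold higher and 12 lower after dexamethasone (1.52% and 12.2%), and 1 of 42 was higher and 32 lower in dKO against control liver (8.19% and 31.5%).

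The highest GR peaks after dexamethasone on that list were near Cyp4a12a, a further Cyp4a omega-hydroxylase, Rxra, the partner receptor of PPARalpha, Angptl4, an inhibitor of lipoprotein lipase, and Slc27a2, a fatty acid transporter and acyl-CoA synthetase. The values here are each gene's strongest peak in a list, which need not be the same site. For Cyp4a12a the GR tag count was 20.0 under vehicle and 222.6 under dexamethasone in control liver, and 7.22 and 50.8 in dKO liver. Both dexamethasone values stood above both vehicle values. Rxra had GR at 184.6, 186.5, 71.3 and 111.4 in the same order, from a peak 51.3 kb outside the gene, and Angptl4 had 145.1, 181.0, 66.0 and 101.2. In both the dKO values lay below the control values, as at the main Cpt1a site. By NCOR1 in control vehicle liver the list was led by Rxra (169.3), the acyl-CoA synthetase gene Acsl1 (132.8), the thioesterase gene Acot1 (104.9) and Slc27a2 (96.8), with 9.73 to 18.3 in dKO vehicle liver.

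By strongest GR peak in the 4 lists, Ppara was most like Cd36, Cpt1a and Ppargc1a among 36 genes with a GR peak in every list, by distances of 0.82, 0.82 and 0.92 on the log2 scale. Cd36, a fatty acid uptake receptor, had GR tag counts of 43.0 and 79.6 in control liver and 26.0 and 35.3 in dKO liver, vehicle before dexamethasone, and Ppargc1a, a coactivator of PPARalpha, had 27.1, 73.3, 23.8 and 38.7 in the same order. Like Ppara, both had their lowest value in dKO vehicle liver, but Ppara's highest peak was nearly as high in dKO as in control dexamethasone liver, at 55.9 and 57.3.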

How the data were processed

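Mouse liver ChIP-seq libraries for GR and NCOR1 were trimmed with Trim Galore 0.6.4, aligned with BWA 0.7.17 to mm10 and analysed with HOMER 4.11 and bedtools 2.29.2, per the submitters' processing notes. The authors deposited 1 HOMER peak list per group with libraries pooled, and, per the file headers, peaks are 200 bp wide, at least 4-fold over input and over the local 10 kb with p of 0.0001, at least 400 bp apart and with at most 1 tag counted per position. The deposited signal is the normalised tag count (tags per 10 M), and the fold over input and local background are deposited ratios from the same caller. GR lists used a fixed tag threshold of 15, and NCOR1 lists an FDR, per the file headers.

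From these values, peaks were assigned to RefSeq gene bodies (GRCm38.p6) within 100 kb and matched across lists by 1 bp overlap (checked with bedtools 2.31.1, 0 of 175953 peaks differed). Tags were recovered from header totals, which come in steps of 0.5 tag, and rounded, and ratios were given exact binomial (Clopper-Pearson) 95% intervals in Python 3.11.15 with SciPy 1.17.1. Intervals treat tags as independent molecules and cover counting error only. A site was counted as changed at 2-fold or more. All 8 members are named. From the 48 other genes, the text names the 4 with the highest GR peak in control dexamethasone and the 4 with the highest NCOR1 peak in control vehicle, and the 3 genes most like Ppara. The members and lists were chosen with earlier results of these data known. The code was tested on simulated data. Alternatives were another overlap, distance, fold, list length, background threshold and centring on the median of all sites. The input library was used by the authors' caller and not analysed here on its own.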

Additional observations from a re-analysis of the deposited data

Results flagged for a closer look

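At 3 of the 9 member sites listed in all 4 GR lists, an effect pointed in opposite directions in the 2 settings compared, each value being a single pooled list, so the difference was not tested. At Cyp4a14 (chr4:115497582-115497826) GR was higher after dexamethasone in control liver (12.7 and 25.0) and slightly lower in dKO liver (31.9 and 27.7), and the log2 drug ratio was -1.18 in dKO minus control. At Ppara (chr15:85679509-85679732) GR was higher in dKO than in control liver under vehicle (20.2 and 17.5) and lower under dexamethasone (10.5 and 13.0), and the log2 genotype ratio was -0.52 under dexamethasone minus vehicle. At Cyp4a10 (chr4:115513937-115514254) GR was also higher in dKO liver under vehicle (13.0 and 9.46) and lower under dexamethasone (17.9 and 20.0), with a difference of -0.62. For Ppara and Cyp4a10 the interval of each genotype ratio included 1.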

How the results depend on the processing

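No paired analysis was possible because replicates were pooled in each list, and for the same reason no replicate could be left out. Of 77 values under another setting, 43 stayed within the limits set for them, 33 moved and 1 turned its direction; every other ratio of sums kept its direction. Centred on the median of all shared sites, the dKO to control GR ratio was 0.890 with 2 sites past 2-fold under vehicle and 0.929 with 1 site under dexamethasone, the NCOR1 drug ratio was 0.961 with 4 sites, and the NCOR1 dKO ratio 0.508 with 2 sites. With an overlap of 100 bp, 0 GR sites were past 2-fold after dexamethasone in control liver. Within 20 kb the NCOR1 drug ratio was 0.826 with 4 sites past 2-fold. At 1.5-fold, the sites past the limit were 6 and 3 for GR after dexamethasone in control and dKO liver, 10 for GR in dKO against control under dexamethasone and 12 for NCOR1 after dexamethasone. The share of all shared sites past the limit was not computed for these settings. The counts therefore cannot be read as above or below the background.

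With peaks at least 8-fold over input and local background, members kept 6 GR peaks under vehicle and 9 under dexamethasone in control liver, 3 and 5 in dKO liver, and 25, 18 and 0 NCOR1 peaks under vehicle and dexamethasone in control liver and in dKO liver. Of those GR peaks, 4 and 5 met NCOR1 in control vehicle and dexamethasone liver, and the share of all GR peaks under this filter was not computed. The GR drug ratio was then 1.45 in control and 1.16 in dKO liver, each with 0 sites past 2-fold, and the NCOR1 drug ratio 0.918 with 2 sites. The dKO to control GR ratio under vehicle reversed to 1.18 with 1 site past 2-fold, and was 0.765 with 0 sites under dexamethasone; fewer sites were compared by construction, 3 under vehicle and 5 under dexamethasone. No NCOR1 site was left to compare dKO with control. Low tag counts limit the precision, as at the Ppara GR site with 9.83 under vehicle and 10.8 under dexamethasone, where the interval of the ratio ran from 0.629 to 1.88.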
